A study of Drosophila melanogaster with 4 samples.

Results

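Ribosome biogenesis and RNA exosome factors were measured in *Drosophila* ovaries with germline *bam* RNAi and in ovaries with germline *bam* RNAi and *aramis* RNAi together. The set was given as 38 gene symbols that fall into small nucleolar ribonucleoprotein (snoRNP) components, processome and 40S factors, 60S assembly factors, nucleolar factors around rDNA transcription, and subunits of the RNA exosome. Of the 38 symbols, 37 were found by their FlyBase identifiers among the 17023 genes of the count files, and all 37 passed the filter on low counts that left 9115 genes. *hoip*, a protein of C/D snoRNPs and of the spliceosome, could not be matched to a row by its current identifier and was not analysed here.

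Both genotypes carried *UAS-Dicer2* and *NosGAL4*, a driver that is active in the germline, so the RNAi constructs were expressed in germ cells while whole ovaries, including their somatic cells, were sequenced. *bam* (*bag of marbles*) is required for the stem cell daughter to differentiate, and its loss fills the ovary with undifferentiated germ cells. *aramis*, listed as *ais*, encodes a DEAD-box RNA helicase with a role in ribosome biogenesis. Ovaries of yeast-fed flies were taken 1 to 3 days after eclosion, and poly(A) RNA was sequenced in 2 libraries per genotype. *bam* RNAi was present in both genotypes, and whether it was equally strong in them was not tested. The labels number the libraries as replicates and do not say whether they came from separate crosses or dissections, so the p-values measure the spread between these libraries, which may be technical.

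Ribosomes are assembled in the nucleolus, where RNA polymerase I transcribes the rRNA precursor. C/D and H/ACA snoRNPs methylate and pseudouridylate the precursor, the small subunit processome folds and cuts it, and separate factors then carry the 40S and 60S subunits to the cytoplasm. The RNA exosome, a barrel of inactive ring and cap subunits with attached nucleases, trims rRNA precursors and degrades the spacers that are cut out. Germline stem cells of the fly ovary have large nucleoli, and the production of ribosomes falls as their daughters differentiate.

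Levels of 1 gene across libraries are given as CPM, its counts scaled to library size with edgeR's TMM factors. Levels between genes are given as TPM, for which counts were also divided by exon length. Changes are log2 fold changes of >*bam* RNAi; *aramis* RNAi over >*bam* RNAi with their standard errors, and p-values were adjusted over all 9115 genes with the Benjamini-Hochberg method. Total counts ran from 11882367 to 13348602 per library, so that the floor of 3 counts corresponded to at most 0.252 CPM, and this floor covers counting error only. Counts of the members in a library ran from 55 to 8935, and 5 members had under 100 counts in at least 1 library.

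Levels of the targeted genes were measured as well. *ais* had 35.1 and 35.6 CPM in >*bam* RNAi and 13.1 and 14.2 CPM in the libraries labelled with *aramis* RNAi. Its log2 fold change of -1.37 (edgeR adjusted p = 0.000333, standard error 0.113) was below that of every member. The median of 13 germline markers, described below, was lower still at -1.54. Whether the fall of *ais* came from its RNAi was not tested. *bam*, targeted in all 4 libraries, had 2.71 and 1.76 CPM against 1.41 and 1.50 CPM, and its difference of -0.61 did not pass the test (edgeR adjusted p = 0.262). With no library free of *bam* RNAi, these values do not check that label.

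Most of these genes were lower with *aramis* RNAi. In edgeR's quasi-likelihood test, 34 of the 37 members fell, 1 rose and 2 did not pass an adjusted p of 0.05. Across all genes tested, 50.4% were called in either direction, 25.0% lower and 25.4% higher. The members' median log2 fold change was -0.74, against -0.02 over all genes tested, and single members ran from -1.19 for *l(1)G0020* to 0.35 for *Non1*. A fall of over 2-fold was called for 8 members, where 6.71% of all genes fell that far, and no member rose over 2-fold, where 8.62% of all genes did. The CPM values of the genotypes did not overlap for any of the 37 members, against 77.1% of all genes. Replicates lay close together, with a median ratio between replicates of 1.06 in each genotype and a highest ratio of 1.29, for *RIOK2* with *aramis* RNAi. With >*bam* RNAi replicate 1 or 2 left out, the members' median was -0.73 in each case, against -0.01 over all genes. Fewer members passed the threshold in these fits, and so did fewer of all genes. Differences between the changes of single members were not tested, and where members are ordered by change, the order is that of the estimates. There were 14 members that passed the threshold in all 11 fits. The share of all genes that did so was not computed. The summed share of the members in a library's counts was 0.399% and 0.394% in the >*bam* RNAi replicates, against 0.243% and 0.230% in those that also had *aramis* RNAi.

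**Figure D1:**
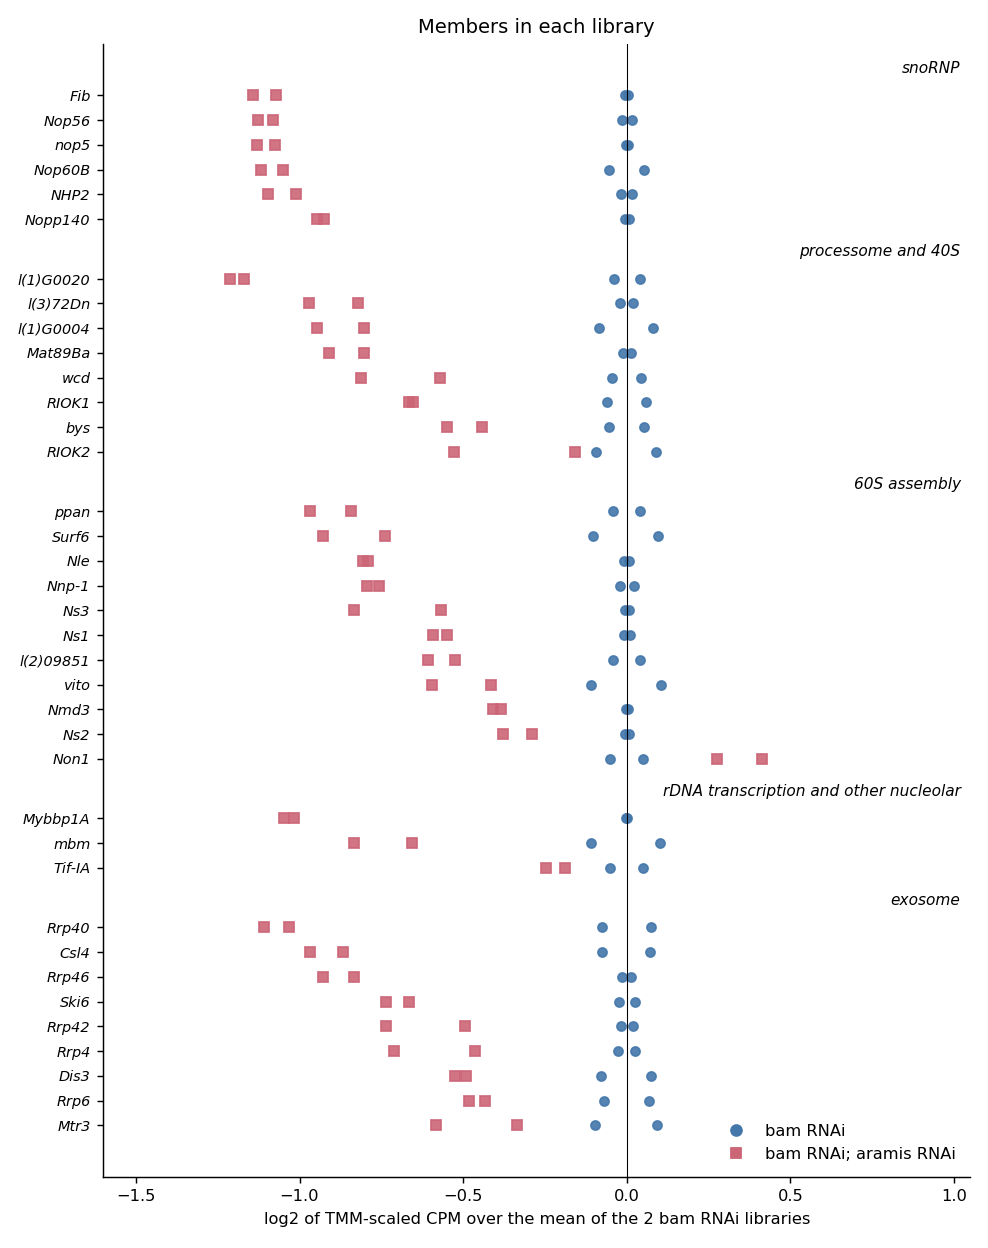
Each of the 37 members is a row, with the log2 of its TMM-scaled CPM over the mean of the >*bam* RNAi libraries on the x axis, circles for the 2 >*bam* RNAi libraries and squares for the 2 >*bam* RNAi; *aramis* RNAi libraries. Squares lie left of the circles in every row except *Non1*, where they lie to the right, a rise that no longer passed the test when libraries were scaled to their totals only (0.15, adjusted p = 0.244).

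The direction of these changes did not depend on the scaling, but their size did. When libraries were scaled to their totals without TMM factors, the median over all genes moved by -0.19 and that of the members was -0.94, and under that scaling 36 members were lower and 0 higher. The split of calls over all genes moved with it. Of the 4590 genes called with TMM factors 50.4% were higher, and of the 5030 called with totals only 33.5% were higher.

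Genes that mark cell types moved as well. The germline markers were *aub*, *AGO3*, *nos*, *rhi*, *cuff*, *del*, *tud*, *spn-E*, *krimp*, *tej*, *qin*, *zpg* and *ovo*. This short list need not stand for all germline genes, and its median is not a measure of germ cell number. Of these 13 genes 12 were lower and 1 was higher, with a median of -1.54. They ran from -2.59 for *rhi* and -2.20 for *ovo* to -0.63 for *del* and 0.47 for *tud*. Summed over the list, germline markers had 2422 and 2467 CPM in >*bam* RNAi and 1616 and 1407 CPM with *aramis* RNAi. The largest part of these sums was *tud*, the marker that rose, with 562 and 575 CPM against 862 and 715 CPM. The sums therefore fell less than most single germline markers. Of 15 somatic ovary markers 7 were higher, 2 lower and 6 not called, with *upd1* (-1.90) and *tj* (-1.08) at the low end and *Fas3* (0.86) and *zfh1* (1.14) at the high end. Their sum was 2402 and 2269 CPM against 3575 and 3355 CPM, of which *Fas3* alone had 821 and 803 CPM against 1510 and 1447 CPM. All 6 muscle sheath markers found were higher, from 0.90 for *Act57B* and 0.92 for *Mhc* to 1.02 for *Mlc1* and 1.04 for *Mlc2*, and their sum rose from 19110 and 16662 CPM to 28828 and 39939 CPM. Eggshell genes were uneven, with sums of 4482 and 18922 CPM in the >*bam* RNAi replicates and 860 and 205 CPM with *aramis* RNAi. Of these 8 genes 6 were lower and 1 higher, from -7.89 for *Vm32E* and -5.50 for *Vm34Ca* to -0.74 for *Fcp3C*, which was not called, and 1.44 for *yellow-g*. The size of the *Vm32E* change is uncertain. It had 507 and 4261 counts against 15 and 1, the last below the floor of 3 counts, and a standard error of 1.38. No listed marker was at 0 in any library. Every member lay between the medians of the germline and the somatic markers, and 9 of the 13 germline markers fell further than the member that fell most. In these bulk samples fewer germ cells and less RNA of a gene per germ cell cannot be told apart, and the part of the cell mixture in the members' changes was not tested. The eggshell sums differed between the genotypes and between the >*bam* RNAi replicates, so the libraries may also differ in the stages of their tissue. The part of tissue stage in the members' changes was not tested either.

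**Figure D2:**
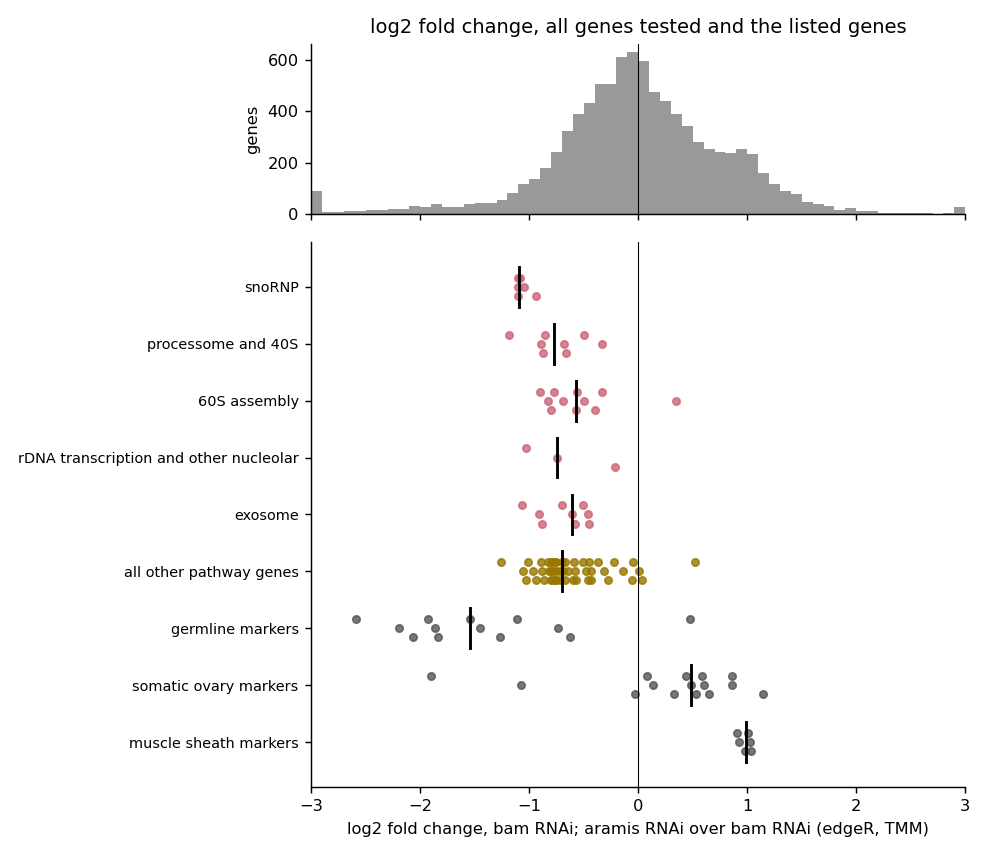
The upper panel counts all 9115 genes by log2 fold change, >*bam* RNAi; *aramis* RNAi over >*bam* RNAi, with values beyond 3 drawn at the edge, and the lower panel shows each gene of each list as a point with the list's median as a bar. The medians of the lists of members lie from -1.09 for snoRNP proteins to -0.57 for 60S assembly factors, between the germline markers at -1.54 and the somatic markers at 0.48.

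All 6 snoRNP proteins that were measured fell, and 5 of them fell within a narrow range of log2 fold changes, from -1.11 to -1.05. *Fib* encodes fibrillarin, the methyltransferase of C/D snoRNPs, and lies on chromosome arm 2R from 23072909 to 23074725 on the minus strand (BDGP6, dm6 coordinates). It had 152 and 151 CPM in >*bam* RNAi and 68.8 and 72.3 CPM with *aramis* RNAi, a log2 fold change of -1.11 (edgeR adjusted p = 0.000248, standard error 0.0732). The replicates differed by far less than the genotypes.

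*Nop56* and *nop5* encode the paired scaffold proteins on which the C/D snoRNP is built. *Nop56* had 187 and 191 CPM against 89.4 and 86.7 CPM. *nop5*, on arm 2L from 6916753 to 6918743, had 290 and 291 CPM against 133 and 138 CPM. Both had a log2 fold change of -1.10, with standard errors of 0.0707 and 0.0711. Their ratio was nearly the same in each library, with 0.670 and 0.681 *Nop56* per *nop5* in TPM in >*bam* RNAi, against 0.700 and 0.652 with *aramis* RNAi. *Fib* was likewise at 0.723 and 0.715 of *nop5* in TPM, and at 0.713 and 0.721 with *aramis* RNAi.

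Of the H/ACA proteins, *Nop60B*, the fly dyskerin and the pseudouridine synthase of the complex, had 347 and 374 CPM in >*bam* RNAi and 166 and 174 CPM with *aramis* RNAi. Its log2 fold change was -1.08 (standard error 0.0795). *NHP2*, a core protein of the same complex, had 80.3 and 78.6 CPM against 37.2 and 39.5 CPM, a log2 fold change of -1.05. In TPM *NHP2* was at 1.01 and 0.918 of *Nop60B* in >*bam* RNAi and at 0.978 and 0.990 with *aramis* RNAi, so that these ratios overlapped between the genotypes. *Nopp140*, a nucleolar chaperone of snoRNPs, fell least of the 6, from 253 and 251 CPM to 131 and 133 CPM, with a log2 fold change of -0.94 (edgeR adjusted p = 0.000265, standard error 0.0687). The edgeR adjusted p of these 6 genes was at most 0.000360, and all 6 passed in each of the 11 fits.

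Per length, the snoRNP proteins were high among the members. In >*bam* RNAi *nop5* was at 401 ± 13.2 TPM (SD, n = 2), followed by *Fib* at 288 ± 11.7 TPM and *Nop56* at 271 ± 5.61 TPM. *Nop60B* at 264 ± 4.29 TPM and *NHP2* at 254 ± 13.3 TPM did not differ beyond their spread. *Nopp140* was lowest at 195 ± 8.20 TPM. With *aramis* RNAi the list ran from 93.7 TPM for *Nopp140* to 171 TPM for *nop5*.

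The genes *Fib*, *nop5* and *Nop60B* carry snoRNA genes within their own spans on the same strand, and they were the only members that do. *Fib* holds 1, *nop5* holds 1 and *Nop60B* holds 7. Few reads were counted on these snoRNA genes in the poly(A) libraries, with 19 and 12 against 5 and 4 counts inside *Fib* and sums of at most 8 counts in a library inside each of the other two. snoRNA exons cover 522 of the 3412 exon bases of *Nop60B*, which lies on arm 2R from 24174877 to 24186343. The snoRNA genes that overlap its exons had 0 counts in every library. How reads that overlap several genes were counted is not given in the sources used here. The TPM of *Nop60B*, and so its ratio to *NHP2*, is therefore uncertain.

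**Figure D3:**
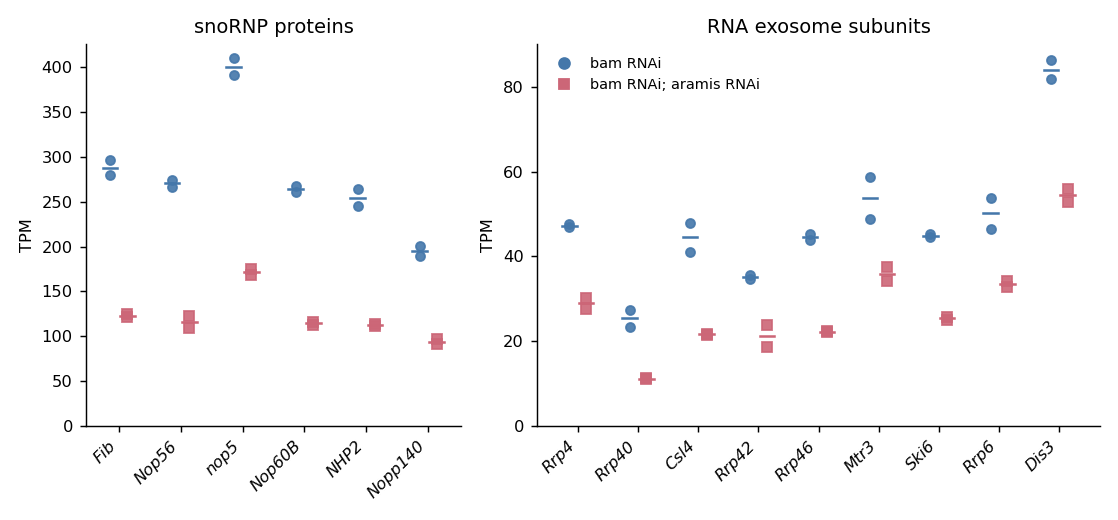
TPM of the 6 snoRNP proteins (left) and the 9 exosome subunits (right) in each library, with circles for >*bam* RNAi, squares for >*bam* RNAi; *aramis* RNAi and a bar for the mean of 2 libraries. *nop5* and *Dis3* are the highest of their panels in both genotypes, and *Nopp140* and *Rrp40* the lowest. The level of *Rrp40* is uncertain, since its exons overlap *Eno* on the opposite strand.

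Among processome and 40S factors 7 of 8 fell, with a median log2 fold change of -0.77. The gene with the largest fall of all members was *l(1)G0020*, the homolog of the rRNA acetyltransferase NAT10. It lies on the X chromosome from 8716713 to 8720277 on the minus strand, and had 109 and 104 CPM in >*bam* RNAi and 46.0 and 47.4 CPM with *aramis* RNAi. Its log2 fold change was -1.19 (edgeR adjusted p = 0.000264, standard error 0.0838), a 2.28-fold lower level with *aramis* RNAi. *CG1785*, on the opposite strand, covers 234 of its 3250 exon bases.

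Both WD-repeat proteins of the processome in this list fell. *l(3)72Dn*, the homolog of cirhin, had a log2 fold change of -0.89, and *wcd*, the homolog of yeast Utp18, one of -0.69. In TPM *l(3)72Dn* was at 0.630 and 0.689 of *wcd* in >*bam* RNAi and at 0.590 and 0.554 with *aramis* RNAi. *Mat89Ba*, the homolog of human NOL6, fell by 0.85 on the log2 scale. *l(1)G0004* fell by 0.87, on 225 and 221 counts against 97 and 107.

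*bys*, which encodes bystin, was the highest of this list at 113 ± 10.1 TPM (SD, n = 2) in >*bam* RNAi. It had 71.2 and 66.1 CPM against 46.9 and 50.5 CPM with *aramis* RNAi, a log2 fold change of -0.50 (edgeR adjusted p = 0.00572, standard error 0.0958). The kinase *RIOK1* fell by 0.66 on the log2 scale, from 41.8 to 24.3 TPM.

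*RIOK2*, the second kinase of 40S maturation, was not called. It had 17.5 and 19.9 CPM in >*bam* RNAi and 16.7 and 12.9 CPM with *aramis* RNAi, so the genotypes were separated by less than the gap between the *aramis* RNAi replicates. Its log2 fold change was -0.33 (edgeR adjusted p = 0.143, standard error 0.168), with adjusted p from 0.0383 to 0.362 over the alternatives that kept all libraries, and it passed with library totals only. An antisense RNA gene with 0 counts in all libraries covers 849 of its 1751 exon bases, and whether reads were assigned by strand is not given in the sources used here.

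In the 60S assembly list 10 of 11 genes fell and 1 rose, with a median log2 fold change of -0.57. *ppan* (*peter pan*), the homolog of the yeast Ssf proteins, fell most. It had 46.4 and 49.1 CPM in >*bam* RNAi and 26.6 and 24.4 CPM with *aramis* RNAi, a log2 fold change of -0.90 (edgeR adjusted p = 0.000799, standard error 0.104). *Surf6* fell by 0.83, *Nle* (*Notchless*), which acts on late nuclear 60S particles, by 0.80 and *Nnp-1*, the homolog of human RRP1, by 0.78. Of these 4 genes *Surf6* was the highest per length, at 154 ± 20.7 TPM (SD, n = 2) in >*bam* RNAi, and *Nle* the lowest, at 49.6 ± 1.41 TPM.

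The GTPases of the nucleostemin family all fell. *Ns3*, the homolog of yeast Lsg1 that acts in the cytoplasm, fell by 0.69 on the log2 scale. *Ns1*, the fly nucleostemin, fell by 0.57 and *Ns2* by 0.33. In TPM *Ns1* was at 1.26 of *Ns2* in both >*bam* RNAi libraries and at 1.02 and 1.12 with *aramis* RNAi. Its ratio to *Ns3* was 2.01 and 2.02 in >*bam* RNAi, against 2.38 and 2.04 with *aramis* RNAi. With 2 libraries per genotype a two-sided exact permutation test of such a ratio cannot go below p = 0.333, so these ratios were not tested.

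Smaller falls were also called for *vito* (-0.50), the homolog of NOL12, and *Nmd3* (-0.40), the adaptor that exports the 60S subunit from the nucleus. *vito* had 29.2 and 25.1 CPM against 18.0 and 20.3 CPM, and DESeq2 did not call it (adjusted p = 0.0702, range over the alternatives that kept all libraries 0.00339 to 0.0702).

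*Non1*, the fly homolog of the nucleolar GTPase NOG1, went the other way. The gene lies on arm 2R from 9396265 to 9398734 on the minus strand, apart from the exons of any other gene in the annotation. It had 611 and 571 CPM in >*bam* RNAi and 787 and 716 CPM with *aramis* RNAi, so that both libraries with *aramis* RNAi were above both without. Its log2 fold change was 0.35 (edgeR adjusted p = 0.0248, standard error 0.0982), with adjusted p from 0.000936 to 0.244 over the alternatives that kept all libraries, and it was not called with library totals only. It was also called in 1 of the 4 fits that left out a library, the one without >*bam* RNAi; *aramis* RNAi replicate 2.

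*Non1* stood apart in level too. It was at 649 ± 54.8 TPM (SD, n = 2) in >*bam* RNAi and 760 ± 93.5 TPM with *aramis* RNAi, the highest of the 37 members in both genotypes. Relative to *Ns1* its TPM was 3.70 and 3.41 in >*bam* RNAi, against 7.14 and 6.31 with *aramis* RNAi. Relative to *ppan* it was 8.54 and 7.55, and 19.2 and 19.0 with *aramis* RNAi. Within the list the range from *Nle* to *Non1* was 13.1-fold in >*bam* RNAi and 29.0-fold with *aramis* RNAi.

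**Figure D4:**
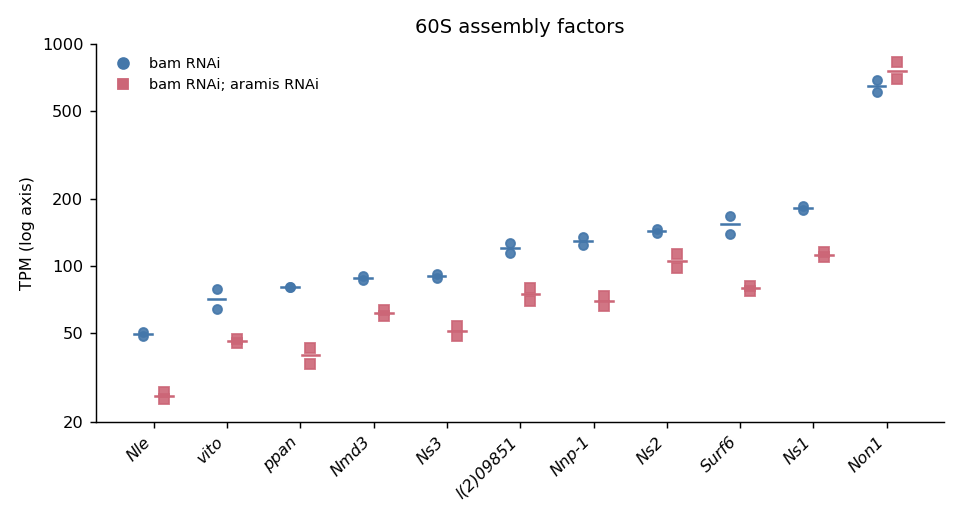
TPM on a log axis of the 11 60S assembly factors in each library, ordered by their mean in >*bam* RNAi, with circles for >*bam* RNAi, squares for >*bam* RNAi; *aramis* RNAi and a bar for the mean of 2 libraries. *Non1* is the highest gene, and the only one of the 11 whose mean is higher with *aramis* RNAi, at 760 against 649 TPM.

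Of the nucleolar factors outside these complexes, *Mybbp1A*, a nucleolar Myb-binding protein, fell most. It had 99.1 and 98.9 CPM in >*bam* RNAi and 47.9 and 48.9 CPM with *aramis* RNAi, a log2 fold change of -1.03 (edgeR adjusted p = 0.000303, standard error 0.0810). *mbm* (*mushroom body miniature*), a nucleolar zinc finger protein, fell by 0.74 on the log2 scale. *Tif-IA*, the factor that recruits RNA polymerase I to rDNA, was the highest of these 3 per length, at 101 ± 1.36 TPM (SD, n = 2) in >*bam* RNAi. It had 83.7 and 89.9 CPM against 73.2 and 76.2 CPM, and its log2 fold change of -0.22 (standard error 0.0833) did not pass the threshold (edgeR adjusted p = 0.0682). Over the alternatives that kept all libraries its adjusted p ran from 0.00598 to 0.259, and it passed with upper quartile factors and with library totals only.

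All 9 exosome subunits fell, with a median log2 fold change of -0.61. Their levels were lower than those of snoRNP proteins, with a median of 44.9 TPM in >*bam* RNAi and 25.4 TPM with *aramis* RNAi. Counts in a library ran from 55 for *Rrp40* to 1813 for *Dis3*, and no subunit passed the threshold in all 11 fits. DESeq2 called 6 of the 9 and not *Rrp4* (adjusted p = 0.0526), *Rrp42* (0.102) and *Mtr3* (0.110), for which the lowest adjusted p over the alternatives that kept all libraries was 0.00241, 0.00635 and 0.00496.

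The cap subunits bind RNA at the entry of the barrel. *Rrp40* fell most, from 11.0 and 9.90 CPM to 4.85 and 5.11 CPM, with a log2 fold change of -1.07 (edgeR adjusted p = 0.00441, standard error 0.193). It lies on arm 2L from 1728732 to 1729762, and 362 of its 1031 exon bases overlap the abundant glycolytic gene *Eno* on the opposite strand. *Eno* had 539 and 497 CPM in >*bam* RNAi and 709 and 916 CPM with *aramis* RNAi, a change of 0.65 in the opposite direction to *Rrp40*. Reads from these genes cannot be told apart where they overlap if strand was not used in counting, so the level of *Rrp40* is uncertain. *Csl4* fell by 0.92 and *Rrp4* by 0.58. In TPM *Rrp40* was at 0.570 and 0.569 of *Csl4* in >*bam* RNAi and at 0.517 and 0.508 with *aramis* RNAi, while *Rrp4* was at 0.994 and 1.14 and then at 1.27 and 1.41.

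The ring subunits resemble the bacterial nuclease RNase PH. *Rrp46* fell by 0.88 on the log2 scale, *Ski6*, the fly Rrp41, by 0.70 and *Rrp42* by 0.61. *Mtr3* and *Rrp6* had near equal changes, the smallest estimates of the 9 subunits. *Mtr3* went from 28.7 and 25.1 CPM to 18.0 and 21.3 CPM, with a log2 fold change of -0.45 (edgeR adjusted p = 0.0321, standard error 0.138). *Ski6* and *Rrp46* were at near equal levels in >*bam* RNAi, at 44.9 ± 0.588 and 44.6 ± 1.01 TPM (SD, n = 2). Across cap and ring together the range from the lowest to the highest subunit was 2.12-fold in >*bam* RNAi and 3.24-fold with *aramis* RNAi, from *Rrp40* to *Mtr3* in both. Both ranges are uncertain, since the level of *Rrp40* is uncertain through its overlap with *Eno*.

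*Dis3*, the processive nuclease at the exit of the barrel, was the highest subunit at 84.1 ± 3.22 TPM (SD, n = 2) in >*bam* RNAi and 54.4 ± 2.104 TPM with *aramis* RNAi. It had 115 and 127 CPM against 84.0 and 86.0 CPM, a log2 fold change of -0.51 (edgeR adjusted p = 0.00294, standard error 0.0829). *Rrp6*, the nuclear nuclease, fell by 0.46, from 50.2 to 33.5 TPM. Its ratio to *Dis3* in TPM was 0.658 and 0.539 in >*bam* RNAi, against 0.614 and 0.619 with *aramis* RNAi, between the values of the >*bam* RNAi replicates.

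Other genes of the same pathway, from a list of 51 symbols of which 49 were measured and are not members, were mostly lower as well. Of these 49 genes 40 fell, 1 rose and 8 did not pass, where 25.0% of all genes tested were called lower and 25.4% higher. Their median log2 fold change was -0.70, against -0.02 for all genes. The lowest were *Nop10*, a small core protein of H/ACA snoRNPs, at -1.26, and *Nufip*, a snoRNP assembly factor, at -1.05. The size of the *Nop10* change is uncertain, with 52 and 90 counts against 26 and 23 and a standard error of 0.345. At the other end *LTV1*, a 40S assembly factor, rose by 0.52, and *Sbds*, which acts in the last step of 60S maturation, was at 0.03 (edgeR adjusted p = 0.901). Genes of this list with a CG symbol were assigned to it as homologs from general knowledge, since the reference tables used here give no orthology. By role, 3 of 3 snoRNP genes, 12 of 14 processome and 40S genes, 16 of 18 60S genes and 5 of 6 RNA polymerase I genes fell. Of 8 exosome subunits and cofactors, 4 fell and 4 did not pass. *Rrp45*, a ring subunit, and *Mtr4*, the helicase that feeds RNA to the nuclear exosome, fell to log2 fold changes of -0.93 and -0.88. *Rrp47*, a nuclear partner of Rrp6, was at -0.06 and *CG8777*, the homolog of cytoplasmic Ski3, at -0.05, and neither passed.

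The members are spread over the genome and share no one gene structure. They lie on arms 2L (8 genes), 2R (8), 3L (6) and 3R (9) and on the X chromosome (6). Exon length ran from 781 bases for *NHP2* to 3797 for *Mat89Ba*, and 5 members have a single block of exon. Exons of 20 members overlap another annotated gene, but for *Nop60B*, *RIOK2* and *Rrp40* alone does the overlap exceed 10% of the exon bases. Among the 17 members with no overlapping exon, 15 fell and 1 rose, with a median log2 fold change of -0.69.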

How the data were processed

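Bulk mRNA-seq libraries of ovaries, 2 of >*bam* RNAi and 2 of >*bam* RNAi; *aramis* RNAi, were grouped by their labels. For every library the authors deposited raw counts, whole numbers without normalization, over 17023 genes. The submitters' processing notes name HISAT2 2.1.0, featureCounts 1.4.6, DESeq2 1.24.0 and dm6, and the annotation release, strand setting and treatment of multiply mapped reads are not given in the sources used here. Members were matched by symbol to Ensembl release 115 and RefSeq names. TPM used the union of exons for the 16647 genes with an annotation, and the other 376 genes held 6.14% to 6.32% of the counts.

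Differential expression was tested across all genes with edgeR 4.0.16 in R 4.3.3 (default filter with a minimum count of 10, TMM, quasi-likelihood test without a replicate block, Benjamini-Hochberg adjustment). Standard errors were derived from the F statistic. The functions were tested on simulated data. Alternatives were DESeq2 1.42.0, RLE and upper quartile factors, library totals, no filter, the replicate block, each library left out, and the longest transcript as length.

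Members, gene lists and tests were chosen with earlier results of these data known. Values in every library are given for the lowest and highest log2 fold change and the highest TPM of each list, for members called against their list's direction or over 2-fold, and for the targets. Of other lists the 2 highest and 2 lowest changes are named, also within the exosome cofactors. Ratios between members were chosen with their values known.

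Same-numbered libraries did not deviate together (correlation 0.035 across genes). Replicates of a genotype were counted as separate samples. Their counts lay further apart than sampling of reads allows (chi-square over its degrees of freedom 27.2 and 15.4), so they are not copies of each other. This does not tell technical from biological replicates.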

Additional observations from a re-analysis of the deposited data

How the results depend on the processing

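The members called (35) numbered between 31 (DESeq2) and 36 under the 6 alternatives that kept all libraries, and 30 of the 37 members kept their call throughout. With library totals only, the median was -0.94 and the number of higher members 0. No member changed direction in any fit. Left-out libraries gave between 15 and 33 called members, between 15 and 32 lower and between 0 and 1 higher. In these fits the lone library is assumed to vary like the other genotype. With the replicate number as a block, 35 members were called (median -0.74) and no call changed. Over all genes, edgeR called 4590 of the 9115 that passed its filter, and DESeq2 called 3792 of 13308 without that filter. With the longest transcript as length, the median TPM of the members in >*bam* RNAi was 75.2 in place of 79.1. Among the members only *Ski6* changed in length, from 980 to 911 bases. The TPM of the others moved by a common factor of 0.95, since the lengths of other genes changed. Depth limits the members of fewest counts: *Rrp40* had 55 and 58 counts with *aramis* RNAi, and its log2 fold change a standard error of 0.193.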
